A study of Mus musculus with 6 samples.

Results

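The genes of the mitochondrial genome were taken from the count table as the rows whose names begin with mt- and whose chromosome is MT, which gave 37 of 49492 genes: 13 protein genes, 2 ribosomal RNA genes and 22 transfer RNA genes. On the strand naming used for mammalian mtDNA, 28 of them belong to the H strand set (plus strand of the table) and 9 to the L strand set (minus strand), namely mt-Nd6 and 8 tRNA genes. The cells were HL-1, a line derived from mouse atrial cardiomyocytes, and every library was made under palmitic acid, a saturated fatty acid. The vector group held 3 libraries of cells given an empty vector, and the other group held 3 libraries of cells overexpressing the human long noncoding RNA ZNF593-AS. The titles name ZNF593-AS in all 3 treated libraries, whereas the treatment entry is ZNF594-AS for replicate 2 and ZNF595-AS for replicate 3, and titles decided the grouping. No library without palmitic acid was included, so a response to the fatty acid cannot be told apart here.

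Library totals ran from 51470457 to 84547615 counts. Whether the 3 libraries of a group came from separate cultures is not stated in the labels, so p-values rest on a sample-to-sample spread that may be technical only. Of 9 atrial myocyte markers, Myh6, Myl7 and Actc1 had 39, 2 and 20 counts over all 6 libraries and Nppa and Sln had 0, while Tnnt2, a cardiac troponin gene, averaged 93.3 CPM (counts per 1e6 of library size, after TMM scaling, which takes most genes as unchanged) and Gata4, a cardiac transcription factor gene, 9.39 CPM. Several defining markers of the labelled cell type were thus at or near 0. Markers of endothelium (Pecam1, Cdh5 and Kdr) were each under 0.3 CPM, as was Adgre1 of macrophages, while the fibroblast collagen gene Col1a2 averaged 227 CPM and the smooth muscle actin gene Acta2 165 CPM. Of 4 fibroblast markers 2 fell (Col1a1 at -0.45 and Col1a2 at -0.25 on the log2 scale) and 1 rose (Pdgfra at 0.39), with a summed level of 313 to 322 CPM in the vector libraries and 246 to 288 CPM in the ZNF593-AS libraries. Of 3 macrophage markers Cd68 rose (0.46), with a summed level of 4.15 to 5.73 CPM in the vector libraries and 6.59 to 7.28 CPM in the ZNF593-AS libraries, and the 2 smooth muscle markers did not pass in edgeR, with a summed level of 139 to 160.1 CPM and 165 to 240.4 CPM. Acta2 was nevertheless higher in every ZNF593-AS library (0.45, edgeR adjusted p = 0.0583), and DESeq2 (adjusted p = 0.000922) and limma-voom (0.0201) called it. The part of these markers in the mitochondrial results was not tested.

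The mitochondrial genome is a small circular DNA that encodes core subunits of the respiratory chain, together with the rRNAs and tRNAs needed to translate them. Each strand is transcribed from its promoter as a long precursor, and the tRNAs that lie between the other genes are cut out of it, which frees the mRNAs and rRNAs. Steady-state levels of the separate RNAs therefore also depend on processing and decay. In heart muscle, which draws most of its energy from oxidative phosphorylation, these mRNAs are among the most abundant transcripts. The mouse nuclear genome also carries old insertions of mtDNA, and a long and nearly identical one lies on chromosome 1, so short reads from several mitochondrial genes can be placed at either locus.

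Sequences of a gene and copy pair and of a tRNA run are shown because the results turn on them, and are given 5′ to 3′ from GENCODE M21 transcripts of GRCm38. The first pairs are the opening 60 bases of mt-Nd3 (MT:9459-9518, plus strand) and of its chromosome 1 copy Gm28438 (chr1:24613060-24613119, minus strand), with the only differing base of the aligned genes in capitals, and of mt-Atp6 (MT:7927-7986, plus strand) and its copy Gm10925 (chr1:24614592-24614651, minus strand), which have no difference.
mt-Nd3: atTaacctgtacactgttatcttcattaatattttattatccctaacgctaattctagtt
Gm28438: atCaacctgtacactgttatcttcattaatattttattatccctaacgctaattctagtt
mt-Atp6: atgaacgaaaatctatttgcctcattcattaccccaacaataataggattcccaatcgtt
Gm10925: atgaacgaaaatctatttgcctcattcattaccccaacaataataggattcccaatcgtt

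The second set is a run of 5 neighbouring tRNA genes between mt-Nd2 and mt-Co1, shown because 3 of them fell. They are the genes for tryptophan (mt-Tw, MT:4950-5016, plus strand), alanine (mt-Ta, MT:5018-5086), asparagine (mt-Tn, MT:5089-5159), cysteine (mt-Tc, MT:5192-5257) and tyrosine (mt-Ty, MT:5260-5326), the last 4 on the minus strand. Capitals mark the anticodon.
mt-Tw: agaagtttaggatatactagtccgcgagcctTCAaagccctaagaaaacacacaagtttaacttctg
mt-Ta: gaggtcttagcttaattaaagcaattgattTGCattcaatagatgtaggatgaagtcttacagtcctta
mt-Tn: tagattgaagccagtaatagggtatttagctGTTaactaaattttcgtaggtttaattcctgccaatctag
mt-Tc: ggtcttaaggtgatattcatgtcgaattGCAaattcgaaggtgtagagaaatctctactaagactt
mt-Ty: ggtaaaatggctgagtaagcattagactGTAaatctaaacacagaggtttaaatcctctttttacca

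With ZNF593-AS, cytochrome b (mt-Cytb) mRNA and the scaled counts at mt-Nd3 rose. Scaled counts at both rRNA genes fell, as did those at the adjacent tRNA genes mt-Ta, mt-Tn and mt-Tc. The rises depended on single libraries: without vector replicate 3 or without ZNF593-AS replicate 3, 0 mitochondrial genes were called higher. The mt-Nd3 call also ended once counts at its chromosome 1 copy were added (edgeR adjusted p = 0.0644). Of the 37 genes 30 had enough counts to be tested with edgeR, and of these 2 rose (6.67%), 5 fell (16.7%) and 23 did not pass at an adjusted p under 0.05. Over all 16473 genes tested 8.4% passed, with 2.23% higher and 6.16% lower. The median log2 fold change of the 30 genes (ZNF593-AS over vector, positive where ZNF593-AS was higher) was 0.16, against 0.0094 over all genes tested. In 3 of the 30 genes (10%) every ZNF593-AS library lay above every vector library, and in 6 (20%) below, against 12.4% and 13.4% of all genes tested. In bulk RNA, fewer cells of a type and less RNA per cell cannot be told apart.

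**Figure D1:**
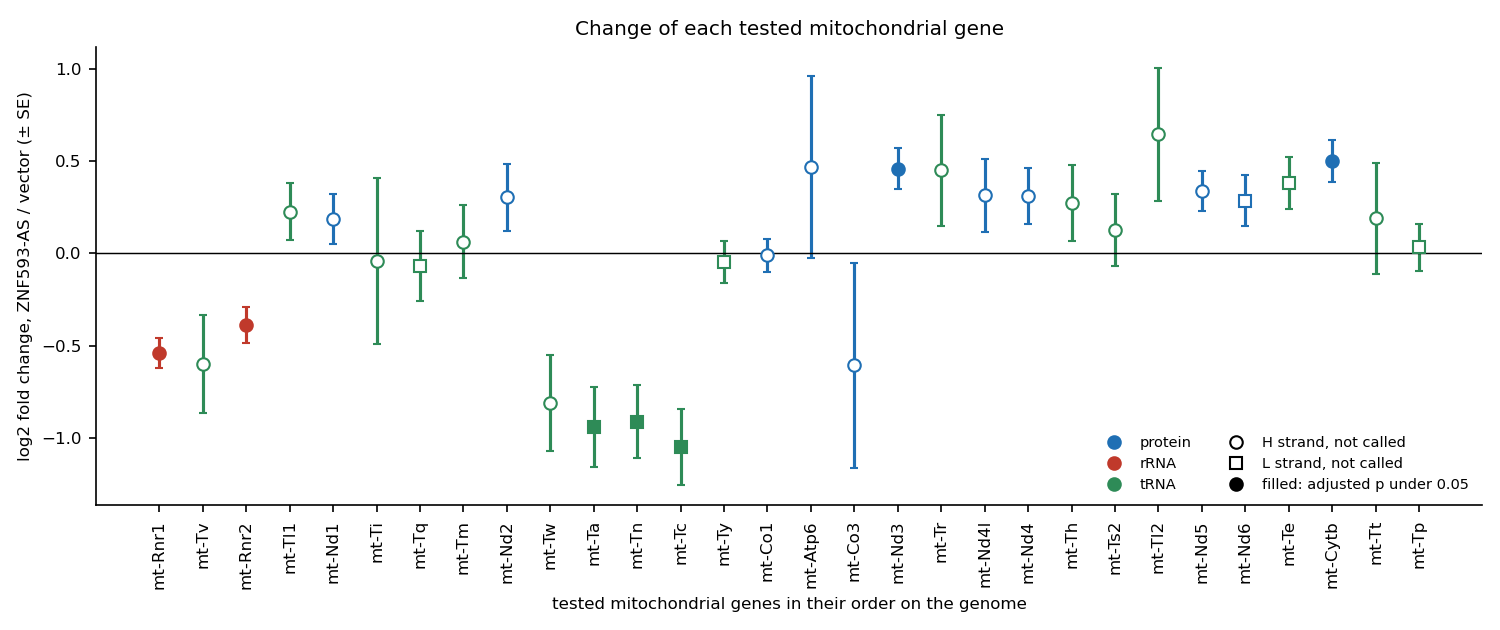
Log2 fold change of ZNF593-AS over vector (± SE from edgeR, 3 libraries a group) for the 30 tested mitochondrial genes, in their order on the genome; colour gives the class, circles the H strand, squares the L strand, and filled symbols an adjusted p under 0.05. The rRNA genes and the run from mt-Tw to mt-Tc lie below 0, and 8 of the 9 protein genes averaging at least 1 CPM lie above it.

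The mRNA of mt-Cytb, which encodes cytochrome b, the only mitochondrially encoded subunit of complex III, had the most counts of the 37 over all 6 libraries. Its level was 4370.1, 3230.1 and 3508 CPM in the vector libraries, given here and below in the order of replicates 1 to 3, and 4714, 5078 and 5936 CPM in the ZNF593-AS libraries. The groups did not overlap, vector replicate 1 was the highest of its group and ZNF593-AS replicate 3 the highest of all. The log2 fold change was 0.50 ± 0.11 (SE; edgeR adjusted p = 0.00938). Dropping vector replicate 3 ended the call (0.46, adjusted p = 0.06), as did dropping ZNF593-AS replicate 3 (0.40, adjusted p = 0.0593). mt-Cytb took 29.2, 26.04 and 29.99% of all counts of the 37 genes in the vector libraries and 33.03, 34.6 and 34.4% in the ZNF593-AS libraries.

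mt-Co1, which encodes the catalytic subunit of complex IV, did not pass. It was at 4491, 4294 and 3695 CPM with vector and 4029, 3985 and 4371 CPM with ZNF593-AS, so the groups overlapped (log2 fold change -0.011 ± 0.09, edgeR adjusted p = 0.966). Counts of mt-Cytb per 100 counts of mt-Co1, a ratio that no library scaling touches and that was chosen after the values were seen, were 97.3, 75.2 and 94.9 with vector and 117, 127 and 136 with ZNF593-AS. The lowest ZNF593-AS value lay above the highest vector value (exact permutation test, two-sided p = 0.1). That is the smallest p that 3 libraries against 3 allow, and adjusted over the 33 sums and ratios compared every p of 0.1 given here became 0.236.

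**Figure D2:**
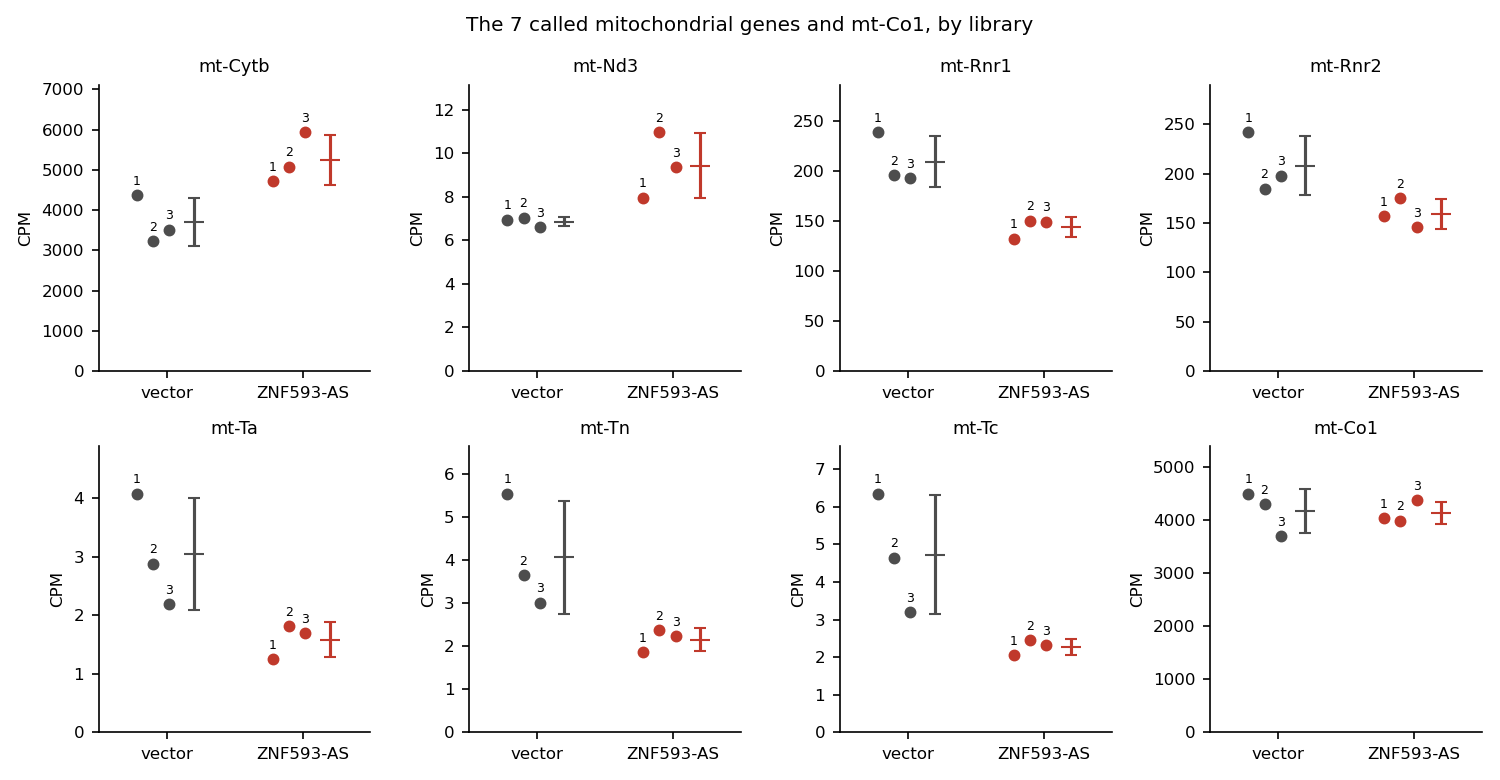
CPM of the 7 mitochondrial genes that passed the test and of mt-Co1 in each library, with the replicate number above each point and the mean ± SD of 3 libraries beside it; axes start at 0. The groups do not overlap in the 7 called genes, and they overlap in mt-Co1.

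The 7 complex I genes, which encode core subunits of NADH dehydrogenase, all had positive log2 fold changes, from 0.19 to 0.46 with a median of 0.31, and 1 of them, mt-Nd3, passed. mt-Nd3 was at 6.94, 7.03 and 6.61 CPM with vector and 7.96, 10.96 and 9.37 CPM with ZNF593-AS (0.46 ± 0.11, edgeR adjusted p = 0.015). The vector libraries lay close together and all ZNF593-AS libraries lay above them. Most of the joint counts of mt-Nd3 and its chromosome 1 copy lay at the copy, as described below. With those added the call ended (0.32 ± 0.10, adjusted p = 0.0644). Dropping any of 4 single libraries (vector replicates 1 and 3, ZNF593-AS replicates 2 and 3) ended it too, with values from 0.33 to 0.47. mt-Nd3 stood at 19.7 CPM per kb of gene in the vector group, against 539 for mt-Nd4l, the next protein gene. Reads counted at neither locus would be missing, so the counts at mt-Nd3 may not measure its mRNA.

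mt-Nd5 had groups that did not overlap but missed the threshold in edgeR, at 1155, 966 and 889 CPM with vector and 1172, 1166 and 1469 CPM with ZNF593-AS (0.34 ± 0.11, edgeR adjusted p = 0.0708). DESeq2 called it (adjusted p = 0.0171), as did edgeR with library totals (0.00159), and limma-voom did not (0.059). mt-Nd1 was at 1494, 1302 and 983 CPM with vector and 1287, 1420.4 and 1593 CPM with ZNF593-AS, so the groups overlapped (0.19 ± 0.14). With single libraries dropped the value ran from 0.036 (vector replicate 3 dropped) to 0.33 (vector replicate 1 dropped), and it was 0.11 once ZNF593-AS replicate 3 was dropped. The other complex I genes of the H strand, mt-Nd2, mt-Nd4 and mt-Nd4l, had log2 fold changes of 0.30, 0.31 and 0.31, and all had overlapping groups. Vector replicate 1 stood above the other vector libraries in each of them, and ZNF593-AS replicate 3 was the highest of all 6 libraries in 7 of the 11 tested protein genes.

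mt-Nd6 is the only protein gene of the L strand. It was at 296, 204 and 238 CPM with vector and 279, 275 and 344 CPM with ZNF593-AS. The groups overlapped through vector replicate 1, and the gene did not pass (0.28 ± 0.14, edgeR adjusted p = 0.296), whereas without that library it did (0.44, adjusted p = 0.02). Summed over the 13 protein genes, the level was 14269, 11824 and 11143 CPM with vector and 13813, 14149 and 16735 CPM with ZNF593-AS, with a log2 ratio of 0.26 and groups that overlapped (exact permutation p = 0.3).

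Both rRNA genes fell. mt-Rnr1 encodes the RNA of the small mitochondrial ribosomal subunit and lay at 239, 196 and 193 CPM with vector and 133, 150.4 and 149 CPM with ZNF593-AS. All 3 ZNF593-AS libraries were below all vector libraries, and the log2 fold change was -0.54 ± 0.08 (edgeR adjusted p = 0.000314). mt-Rnr2, the RNA of the large subunit, was at 242, 185 and 198 CPM with vector and 157, 175 and 145 CPM with ZNF593-AS (-0.39 ± 0.10, edgeR adjusted p = 0.0189), again without overlap. The call of mt-Rnr1 held when any single library was left out, with values from -0.60 to -0.43. That of mt-Rnr2 ended without vector replicate 1 (-0.26, adjusted p = 0.0861) and without ZNF593-AS replicate 1 or 3.

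Counts of both rRNAs per 100 counts of the protein genes were 3.37, 3.22 and 3.51 in the vector libraries and 2.09, 2.301 and 1.76 in the ZNF593-AS libraries. The groups were separate, with a log2 ratio of -0.71, and remained so with the nuclear copies added to the protein genes (-0.66; exact permutation p = 0.1 for each). mt-Tv, the valine tRNA gene between the rRNA genes, had a log2 fold change of -0.60 ± 0.26 and did not pass (edgeR adjusted p = 0.208). Per kilobase of gene, mt-Rnr1 stood at 219 and mt-Rnr2 at 132 CPM per kb in the vector group, against 3237 for mt-Cytb. Whether rRNA was depleted or poly(A) RNA selected is not given in the sources used here. Less rRNA in the cells and a difference in such a step cannot be told apart.

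Nuclear ribosomal RNA loci were also lower in every ZNF593-AS library, and whether they passed depended on the tool. Gm42418 and AY036118 are loci that overlap ribosomal DNA sequence and collect such reads, and both were chosen after the mt-Rnr values were seen. Whether they hold the same reads was not analysed, so their values may not be separate observations. Gm42418 was at 8530.2, 6540.1 and 6560.4 CPM with vector and 5853, 5864 and 5666 CPM with ZNF593-AS (-0.32 ± 0.10, edgeR adjusted p = 0.0649). AY036118 lay at 7869, 5912 and 6073 CPM with vector and 5355, 5407 and 5186 CPM with ZNF593-AS (-0.32 ± 0.10, adjusted p = 0.0683). DESeq2 called both (adjusted p = 0.00966 for Gm42418 and 0.0114 for AY036118), and limma-voom did not (0.0649 and 0.071). Without vector replicate 1, the highest library in both, edgeR gave -0.17 for each. Their groups did not overlap, and their part in the mt-Rnr result was not tested. Counts of the mitochondrial rRNAs per 100 counts of Gm42418 were 5.64, 5.82 and 5.96 with vector and 4.94, 5.55 and 5.201 with ZNF593-AS, a log2 ratio of -0.15 with groups that did not overlap. The summed level of 70 histone genes, most of whose mRNAs lack a poly(A) tail, was 53.1, 46.4 and 49.98 CPM with vector and 50.01, 53.3 and 45.02 CPM with ZNF593-AS, and overlapped.

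**Figure D3:**
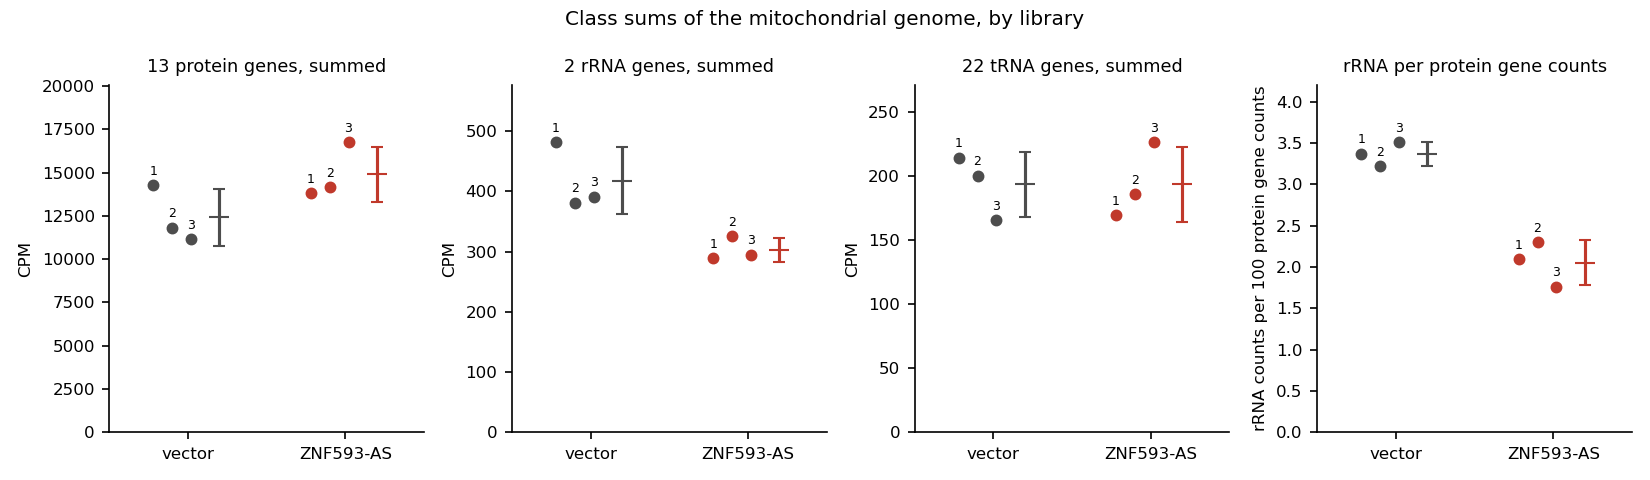
Summed CPM of the protein, rRNA and tRNA genes and the rRNA counts per 100 protein gene counts in each library, with replicate numbers and mean ± SD of 3 libraries; axes start at 0. The groups are separate for the rRNA sum and the rRNA ratio, and overlap for the protein and tRNA sums.

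Among the 22 tRNA genes 17 were tested, 3 fell (17.6%, against 6.16% of all genes tested) and 14 did not pass. The 3 are neighbours on the L strand and together with mt-Tw form a block in which every gene was lower in each ZNF593-AS library than in each vector library. mt-Tc, which encodes the cysteine tRNA, was at 6.35, 4.64 and 3.19 CPM with vector and 2.05, 2.45 and 2.33 CPM with ZNF593-AS (-1.05 ± 0.21, edgeR adjusted p = 0.00469). mt-Tn, for asparagine, was at 5.55, 3.65 and 3.01 CPM with vector and 1.86, 2.37 and 2.23 CPM with ZNF593-AS (-0.91 ± 0.20, adjusted p = 0.00761).

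mt-Ta, for alanine, was at 4.08, 2.88 and 2.19 CPM with vector and 1.25, 1.81 and 1.696 CPM with ZNF593-AS (-0.94 ± 0.22, edgeR adjusted p = 0.0113). mt-Tw, which lies next to them but belongs to the H strand, had 1.12, 0.829 and 1.05 CPM with vector and 0.423, 0.5703 and 0.743 CPM with ZNF593-AS and missed the threshold (-0.81 ± 0.26, adjusted p = 0.0708), which it passed with no filter on low counts (adjusted p = 0.0442). In the 3 called genes vector replicate 1 was highest and vector replicate 3 came closest to the ZNF593-AS libraries. Without vector replicate 1 the call of mt-Ta ended (-0.67, adjusted p = 0.0788), while mt-Tn and mt-Tc passed with any single library left out. These are small counts: mt-Tc had 341, 235 and 231 counts in the vector libraries and 179, 189 and 144 in the ZNF593-AS libraries.

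The fifth gene of the run, mt-Ty, lies 1 base from mt-Co1 and was the most abundant tRNA gene, at 1805 CPM per kb in the vector group, against 71.6 for mt-Tc. It was at 125, 135 and 102 CPM with vector and 109, 106 and 136 CPM with ZNF593-AS, and the groups overlapped (-0.046 ± 0.12, edgeR adjusted p = 0.876). Per 100 counts of mt-Ty, the 4 genes from mt-Tw to mt-Tc had 13.6, 8.86 and 9.26 counts with vector and 5.11, 6.800 and 5.14 with ZNF593-AS, which were separate (exact permutation p = 0.1), a ratio chosen after the values were seen. A tRNA is shorter than a usual sequenced fragment, so counts at tRNA genes may come from precursors or neighbouring RNA as well as from mature tRNA, which these files do not separate.

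The next most abundant tRNA genes did not pass. mt-Tm, for methionine, was at 18.6, 13.8 and 13.8 CPM with vector and 12.8, 14.9 and 20.7 CPM with ZNF593-AS (0.062 ± 0.20). mt-Tl1, a leucine tRNA gene just after mt-Rnr2, was at 15.1, 12.9 and 12.1 CPM with vector and 11.9, 16.3 and 18.9 CPM with ZNF593-AS (0.23 ± 0.16). In both the groups overlapped, and ZNF593-AS replicate 3 was highest. Without ZNF593-AS replicate 1 mt-Tl1 passed (0.40, edgeR adjusted p = 0.0214), and over all single libraries left out its value ran from 0.074 to 0.40. The largest positive value among tRNA genes was that of mt-Tl2, the other leucine tRNA gene, at 10.98, 5.77 and 9.45 CPM with vector and 8.36, 17.00 and 15.9 CPM with ZNF593-AS (0.65 ± 0.36, edgeR adjusted p = 0.407); its groups overlapped because ZNF593-AS replicate 1 lay below vector replicates 1 and 3. The 14 tested tRNA genes without a call ranged from -0.81 to 0.65 with a median of 0.095.

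The 4 tRNA genes between mt-Co1 and mt-Nd3 were at or close to 0. mt-Td and mt-Tk had 0 counts in all 6 libraries, which allows up to 3 counts or 0.0343 to 0.0592 CPM per library (counting error only), mt-Tg had 1 count, mt-Ts1 had 4 and mt-Tf, at the start of the genome, had 21. None of these 5 was tested. Apart from mt-Tf, they lie within the span of the mitochondrial genome that the chromosome 1 copies cover. The 43 bases that mt-Atp8 shares with mt-Atp6 match Gm10925 on chromosome 1. Whether chromosome 1 also holds matching bases at the rest of mt-Atp8 or at these tRNA genes was not analysed here. Only annotated transcripts were compared, so counts at or near 0 do not measure how much RNA of these genes was present.

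By strand, 2 of 22 tested H strand genes rose and 2 fell (9.09% each), while 3 of 8 tested L strand genes fell (37.5%) and 5 did not pass. Of all genes tested 2.23% were higher and 6.16% lower. The 3 L strand genes are the neighbours mt-Ta, mt-Tn and mt-Tc, and the adjacent H strand gene mt-Tw had a value of -0.81. The L strand share of protein and tRNA counts was 3.15, 3.03 and 3.19% with vector and 2.93, 2.82 and 2.98% with ZNF593-AS, a difference of -0.21 percentage points without overlap (exact permutation p = 0.1). The share depends on both strands. H strand protein genes averaged 12166 CPM with vector and 14600 CPM with ZNF593-AS, and H strand tRNA genes 45.3 and 53.4 CPM. On the L strand mt-Nd6 averaged 246 and 299 CPM and the tRNA genes 148 and 140 CPM. Groups overlapped in each of these. With counts of the nuclear copies added to the H strand genes they match, the shares were 1.896, 1.85 and 1.98% and 1.86, 1.77 and 1.89%, and the groups overlapped (exact permutation p = 0.4). The strand setting of the counting is not given in the sources used here. Without it, reads of an L strand gene and of H strand precursor across the same bases cannot be told apart.

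4 adjacent protein genes, mt-Co2, mt-Atp8, mt-Atp6 and mt-Co3, had at most 21 mitochondrial counts in any library, and 3 of them had many counts at identical chromosome 1 copies. mt-Co2, a core subunit of complex IV, had 11, 0 and 3 counts with vector and 2, 4 and 2 with ZNF593-AS, while its copy Gm28661 (chr1:24614885-24615565) had 139426, 87423 and 124811 with vector and 157733, 151804 and 158454 with ZNF593-AS. The copy held nearly all counts in every library of both groups. mt-Atp6, a membrane subunit of ATP synthase, had 12, 5 and 8 counts with vector and 15, 21 and 9 with ZNF593-AS, and its copy Gm10925 had 259297, 204158 and 257553 with vector and 360653, 353978 and 317317 with ZNF593-AS. mt-Co3, a further subunit of complex IV, had 14, 5 and 11 counts with vector and 11, 4 and 10 with ZNF593-AS, while Gm28437 had 93011, 79325 and 94274 with vector and 145576, 122335 and 103026 with ZNF593-AS.

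In all 6 libraries at least 99.98% of the joint counts of these 3 pairs lay in the nuclear copies. Each copy matches its mitochondrial gene at every aligned base: 681 of mt-Co2, 678 of mt-Atp6 and 783 of mt-Co3. mt-Atp8, which shares 43 bases with mt-Atp6 and has no annotated copy, had 15 counts over all libraries. Of these 4 genes only mt-Atp6 and mt-Co3 were tested, at 70 and 55 counts in all, and their values (0.47 ± 0.49 and -0.61 ± 0.55) rest on these few counts.

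The annotation holds 15 nuclear genes that share at least one 50-base stretch with a mitochondrial gene, 14 of them in the table and 7 of these in a run on chromosome 1 from 24611535 to 24616197. How counts fell between a gene and its copy differed along the run. Downstream of mt-Nd3 nearly all joint counts lay at the mitochondrial genes. mt-Nd4 had 60186, 44945 and 52406 counts with vector and 96817, 77332 and 79308 with ZNF593-AS, against 2 to 26 at Gm28439. All 876 bases of that copy match, but mt-Nd4 has 1378 bases and only 62.2% of its 50-base stretches are shared. Its counts may therefore come from bases without a copy. mt-Nd4l likewise had 10934, 7590 and 9192 counts with vector and 15928, 13689 and 14707 with ZNF593-AS, against 156 to 307 at Gm10222, which matches at all 294 bases.

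mt-Nd3 lay between these extremes, with 373, 356 and 478 counts with vector and 696, 846 and 580 with ZNF593-AS. Gm28438 had 1154, 976 and 1261 with vector and 1696, 1781 and 1697 with ZNF593-AS. From 67.8% to 75.6% of the joint counts were in the copy, which differs at 1 of 345 bases, T9461C by position on MT, the third base of the gene. Over the run from mt-Co1 to mt-Nd3 the MT position and the chromosome 1 position of matched first bases add up to 24622578, and for mt-Nd4l and mt-Nd4 to 24622577. The match thus shifts by 1 base between mt-Nd3 and mt-Nd4l, the stretch that holds mt-Tr. At the other end of the run mt-Co1 held most counts. Gm29216, which matches its last 492 bases with 6 differing bases, had 18211, 14306 and 20913 with vector and 28021, 26657 and 19895 with ZNF593-AS. Per kilobase in the vector group Gm29216 stood at 617 CPM per kb, against 2693 for the whole of mt-Co1. mt-Co1 has 1545 bases, so these whole-gene values do not show how reads of its last 492 bases were divided. How the authors' aligner and counter treated reads with several equal matches is not given in the sources used here. The cause of the division of counts along the run was not tested. Matching reads that were counted at neither locus would not show in these counts.

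**Figure D4:**
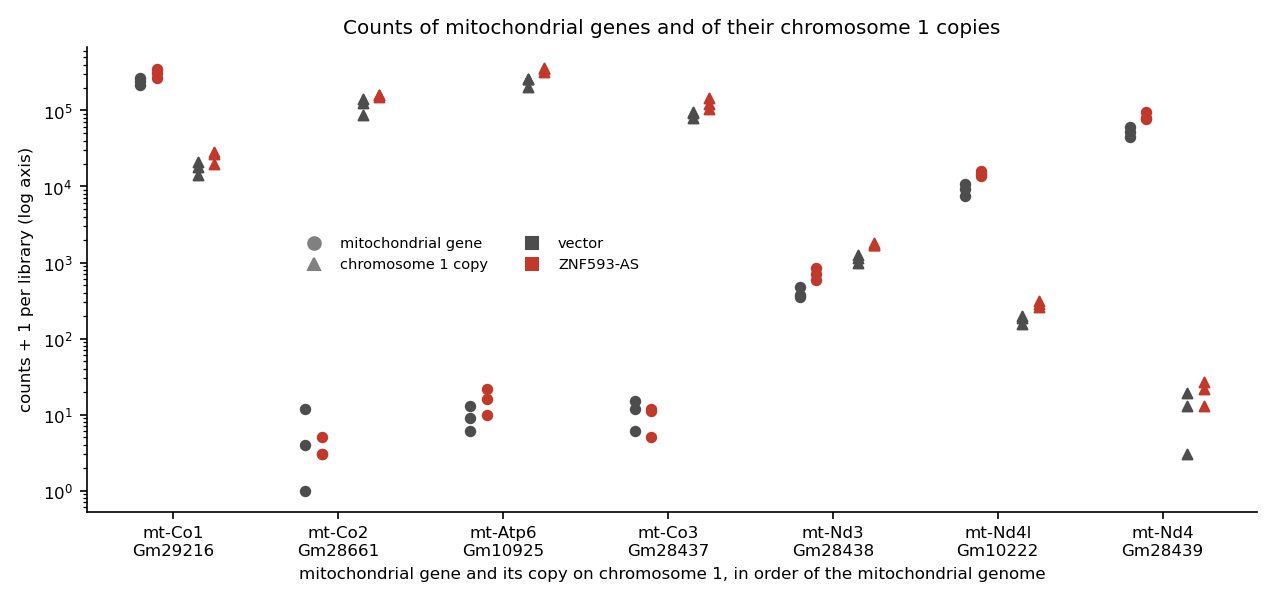
Counts + 1 per library (log axis) of 7 mitochondrial genes (circles) and of their chromosome 1 copies (triangles), ordered by the mitochondrial genome. At mt-Co2, mt-Atp6 and mt-Co3 the copies hold nearly all counts, at mt-Nd4l and mt-Nd4 the mitochondrial genes do, and mt-Nd3 is divided.

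The 3 copies that hold nearly all joint counts with their mitochondrial gene did not pass. Gm10925 was at 4826, 4032 and 3562 CPM with vector and 4126, 4588 and 5125 CPM with ZNF593-AS (0.16 ± 0.11, edgeR adjusted p = 0.466), with values from 0.059 without vector replicate 3 to 0.28 without vector replicate 1. Gm28661 was at 2595, 1727 and 1726 CPM with vector and 1805, 1968 and 2559 CPM with ZNF593-AS (0.066 ± 0.20). Gm28437 was at 1731, 1567 and 1304 CPM with vector and 1666, 1586 and 1664 CPM with ZNF593-AS (0.095 ± 0.09). In all 3 the groups overlapped, with vector replicate 1 within or above the ZNF593-AS range.

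Of 12 tested copies all had positive values, from 0.066 to 0.95. Copies may hold reads of the genes they match, so these values may not be separate from those of the mitochondrial genes. Of the 12, 1 passed, as higher (8.33%), against 8.4% of all genes tested in either direction and 2.23% higher. It was Gm11407, a copy of part of mt-Nd5 on chromosome 4 with 92.5% identity. Gm11407 rose from 2.79, 2.88 and 3.37 to 4.48, 4.303 and 6.95 CPM (0.78 ± 0.17, edgeR adjusted p = 0.00845). It did not pass without vector replicate 1 (adjusted p = 0.0552). With each copy added to the gene it matches, per-length levels in the vector group were 6079 CPM per kb for mt-Atp6, 2984 for mt-Co2, 2904 for mt-Co1 and 1957 for mt-Co3, beside 3237 for mt-Cytb, 1316 for mt-Nd1 and 75.5 for mt-Nd3. On these joint counts mt-Cytb and the 5 genes that fell were called, and no other mitochondrial gene was. Summed over all 37 genes and the copies, the level was 24539.8, 20079 and 18664 CPM with vector and 22272, 23236 and 27050.2 CPM with ZNF593-AS, and the groups overlapped (exact permutation p = 0.3).

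Nuclear genes that replicate, transcribe, process, degrade and translate the mitochondrial genome mostly did not pass, and the largest called change was in RNA decay. Of 64 listed genes 63 were in the table and tested. Of these 4 rose (6.35%), 1 fell (1.59%) and 58 did not pass, against 2.23% and 6.16% of all genes tested. The median log2 fold change was 0.073. In 14 of the 63 (22.2%) every ZNF593-AS library lay above every vector library, and in 4 (6.35%) below. Over all genes tested these shares were 12.4% and 13.4%. Pnpt1, which encodes polynucleotide phosphorylase, an enzyme of mitochondrial RNA decay whose gene is also known as interferon-inducible, was at 176, 175 and 158 CPM with vector and 60.6, 60.98 and 66.9 CPM with ZNF593-AS. Every ZNF593-AS library lay far below every vector library (-1.44 ± 0.07, edgeR adjusted p = 9.23e-11). Its partner helicase gene Supv3l1 did not pass (0.14 ± 0.08), and Lactb2, a mitochondrial endoribonuclease gene, rose from 54.03, 51.03 and 52.2 to 61.5, 64.7 and 60.5 CPM (0.25 ± 0.06, adjusted p = 0.0146).

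Of 9 transcription genes 1 rose. Tfb2m, the factor that lets the mitochondrial RNA polymerase open promoters, was at 9.38, 11.2 and 9.96 CPM with vector and 12.9, 13.1 and 12.5 CPM with ZNF593-AS (0.33 ± 0.09, edgeR adjusted p = 0.0237), a call that ended when any library other than vector replicate 2 was left out. Polrmt, the polymerase itself, was at 12.2, 13.03 and 12.2 CPM with vector and 13.1, 12.4 and 12.7 CPM with ZNF593-AS (0.03 ± 0.08). Tfam, which packages mtDNA and activates its promoters, was at 92.1, 93.02 and 90.6 CPM with vector and 87.3, 89.7 and 88.6 CPM with ZNF593-AS (-0.053 ± 0.06, edgeR adjusted p = 0.66). The ZNF593-AS libraries lay narrowly below the vector libraries, and the sign turned when library totals replaced the scaling factors. Among 11 genes of replication and packaging Rrm2b, a ribonucleotide reductase subunit that supplies nucleotides for mtDNA, rose from 67.4, 72.1 and 75.5 to 82.9, 84.7 and 91.6 CPM (0.27 ± 0.06, adjusted p = 0.0138).

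Among 12 translation genes Mtif2, the mitochondrial initiation factor gene, rose from 30.7, 30.2 and 32.5 to 36.5, 40.02 and 42.4 CPM (0.35 ± 0.07, edgeR adjusted p = 0.00354), without overlap and with any library left out. In edgeR, DESeq2 and limma-voom 0 of 23 RNA processing and modification genes passed, against 8.4% of all genes tested in edgeR. In edgeR 1 of the 23 had an unadjusted p under 0.05. The values of the 23 ran from -0.090 to 0.25. Lactb2 no longer passed once replicate 2 of either group was dropped (0.23 without the vector library, adjusted p = 0.0517), nor did Rrm2b once vector replicate 1 (0.23, adjusted p = 0.0802) or ZNF593-AS replicate 3 was.

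**Figure D5:**
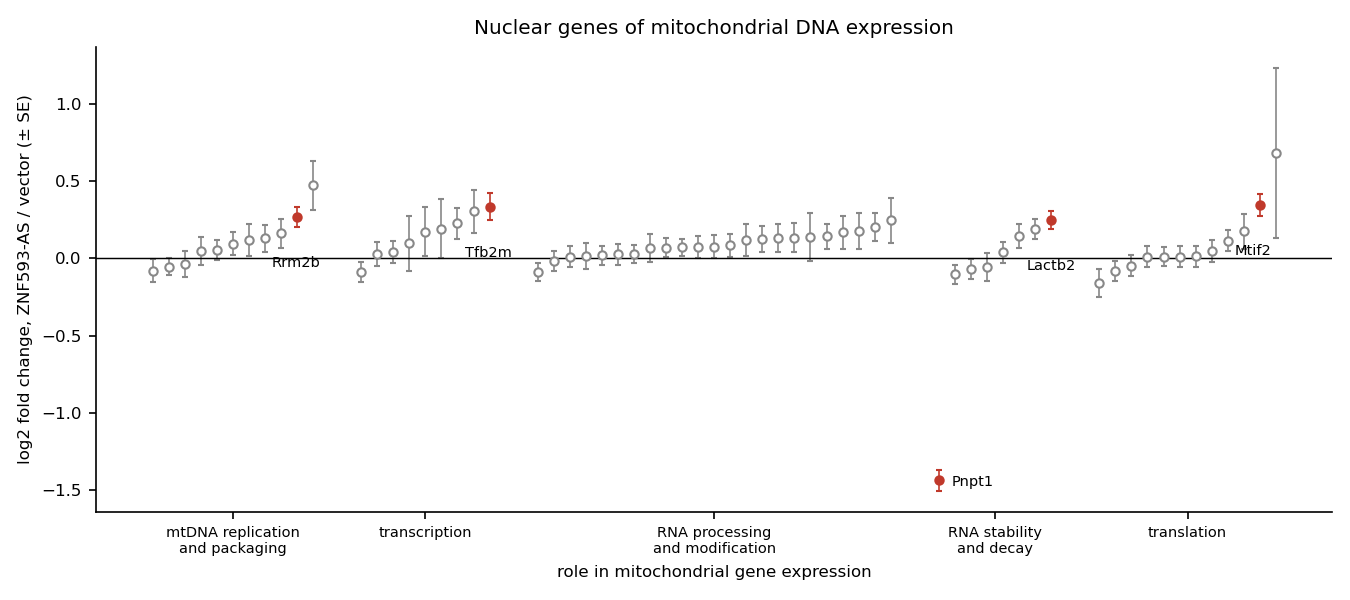
Log2 fold change of ZNF593-AS over vector (± SE from edgeR, 3 libraries a group) for 63 nuclear genes of mitochondrial DNA expression, grouped by role and sorted within each; filled red points passed at an adjusted p under 0.05. Pnpt1 stands at -1.44, and Rrm2b, Tfb2m, Lactb2 and Mtif2 lie between 0.25 and 0.35.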

How the data were processed

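Total RNA of 6 samples was sequenced, 3 a group. The authors deposited unnormalized read counts, 1 whole number for each gene and library. The submitters' processing notes list CASAVA, cutadapt 1.2.1, Bowtie2, TopHat2 and GRCm38 without saying what each was used for; the counter, its strand setting and its handling of multi-mapping reads are not stated there. Genes at a count of 2 (2160 to 2359 per library) outnumbered those at 1 (365 to 492), so read pairs seem to have been counted as 2.

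Genes were kept by filterByExpr (minimum count 10, total 15), scaled by TMM and tested in edgeR 4.0.16 (quasi-likelihood, robust, Benjamini-Hochberg over 16473 genes) in R 4.3.3; alternatives were DESeq2 1.42.0, limma-voom (limma 3.58.1), library totals, library sizes without mitochondrial genes, other filters, counts divided by 2, a replicate block, each library left out, and nuclear copies added to the genes they match. CPM uses the scaled library size. SE is the log2 fold change over the square root of F. Class sums were compared by exact permutation over libraries. Copies were genes of GENCODE M21 sharing a 50-base stretch with a mitochondrial transcript. The positions of the 37 genes were the same in both sources. The pipeline was tested on simulated data. Mitochondrial counts were 1.15% to 1.75% of a library (95% Wilson intervals within 0.00329 percentage points, counting error only). The intervals take every count as independent, so they are too narrow if read pairs were counted as 2. With counts at the nuclear copies added the share was 1.84% to 2.74%.

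The genes, lists and tests were chosen with earlier results of these data known. Full values are given for called genes, rRNAs, mt-Nd6, the 3 most abundant protein and tRNA genes, the extremes of change, Polrmt, Tfam, Tfb2m, called genes of the nuclear list (up to 5 a direction) and the 3 most abundant copies; genes outside this rule, such as mt-Nd5, mt-Tw, mt-Co2, mt-Atp6, mt-Nd4, Supv3l1, Gm11407 and Gm42418, were chosen after their values were seen. All pairs of libraries differed beyond sampling noise (lowest chi-square per gene 10.7, counts divided by 2).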

Additional observations from a re-analysis of the deposited data

How the results depend on the processing

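Beside edgeR's 7 called mitochondrial genes (2 higher, 5 lower), DESeq2 called 8 (3 and 5, with mt-Nd5 the third higher gene) and limma-voom 7 (2 and 5), and 5 or 6 were lower in every alternative that kept all libraries. With no filter 12 were called (6 higher), with library totals 4 were higher and with nuclear copies added 1 was. Leaving out 1 library gave 4 to 9 calls, 0 to 6 higher (0 without vector replicate 3 or ZNF593-AS replicate 3, 6 without vector replicate 1) and 3 to 5 lower (3 without vector replicate 1); the median log2 fold change ran from 0.011 to 0.30 there. Library totals moved the median of all genes from 0.0094 to 0.10. They gave 8 calls in the nuclear list, against 5, and 2 copies, against 1; copies numbered 3 with no filter. With 1 library left out the nuclear list had 3 to 5 calls and the copies 0 to 2.

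The log2 ratio of summed rRNA genes was -0.52 to -0.35 with 1 library left out, that of protein genes 0.17 to 0.38 and that of tRNA genes -0.12 to 0.090, so the sign of the tRNA sum turned. Signs also turned for mt-Co1 (0.081 with library totals, 0.00057 with copies added, -0.090 to 0.050 with 1 library left out), mt-Co3 (0.095 with copies added), mt-Ty (0.044 with library totals, -0.17 to 0.044 with 1 library left out), mt-Tm (-0.15 to 0.22), Gm28437 (-0.0093 to 0.19), Gm28661 (-0.094 to 0.29) and Tfam (0.038 with library totals).

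The labels give both groups replicate numbers 1 to 3. Deviations from the group means had correlations of -0.029, -0.030 and 0.049 between same-numbered libraries. Differently numbered libraries ranged from -0.057 to 0.079. With 3 libraries a group these values cannot show whether same-numbered libraries shared a culture or batch. With the replicate block, 7 mitochondrial genes were called (2 higher, 5 lower), and 2 copies. Counts of 21 or fewer in every library limit mt-Co2, mt-Atp8, mt-Atp6, mt-Co3 and the 5 untested tRNA genes.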
